A study of Mus musculus with 6 samples.

Results

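A set of 10 structural and RNA-binding genes of young neurons was followed in heads of mouse embryos with and without Arid3b: Elavl3, Elavl4, Tubb3, Stmn2, Stmn3, Dcx, Gap43, Ina, Nefl and Nefm. They were named as markers of newly born neurons, with earlier results of these data known, and the array probes that carry a RefSeq accession of 1 of them were taken. All 10 genes were found, on 13 of the 39429 non-control probes, and all 13 probes passed a filter on dim signal, so the 10 genes stand among 14906 genes tested. The groups were wild type heads and Arid3b-null heads at embryonic day 9.5, each dissected to include the first branchial arch, with 3 arrays per group and the RNA of 4 embryos pooled on each array. Arid3b belongs to the ARID family of DNA-binding proteins, and the labels used here do not state the allele, strain or sex of the embryos. Nothing says whether the pools came from separate litters, so p-values reflect only how far these pools differ, which may be technical.

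Neurons arise from dividing neural progenitors, and as they leave the cell cycle they switch on a shared set of genes whatever their later type. Proneural helix-loop-helix factors start the switch. Elavl RNA-binding proteins then stabilise and splice neuronal transcripts, while tubulins, stathmins, doublecortin and neurofilament subunits build the axon and its growth cone. In a head at this stage the first neurons lie in the cranial ganglia, the hindbrain and the midbrain, amid a large excess of progenitors and mesenchyme.

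Levels are log2 array signals relative to the 75th percentile of the non-control signal on the same array, so a level of 0 equals that percentile. Levels of different genes come from different probes and cannot be ranked against each other. Probes that did not stand above background on every array of at least 1 group were left out. Differences are Arid3b-null minus wild type on the log2 scale ± the standard error (SE) from limma, a linear model fitted to all genes with a shared estimate of the spread. A gene was said to fall or rise where the Benjamini-Hochberg adjusted p over all 14906 genes was under 0.05. In a whole head, fewer neurons and less of the RNA in each neuron cannot be told apart.

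On each array 67.9% to 70.3% of non-control spots were well above background, and none was saturated. All 14 regional genes of the head and first arch that were listed, such as Dlx1 and Dlx2, were measured above the filter. Arid3b itself, the targeted gene, was lower on every null array on all 3 of its probes (adjusted p of 0.0265 for the brightest in the gene fit of limma). It missed the threshold when dim probes were retained (0.0599) and when null array 1, 2 or 3 was left out (0.0861, 0.0838 and 0.0690), with a difference of -1.19 in the fit and -1.42 to -0.87 with any 1 array left out. The null arrays kept 43.9%, 38.7% and 19.9% of the wild type signal on those probes, and it is not stated whether any of the probes lies in the deleted stretch. Arrays with the same replicate number shared a slide, with wild type in position 1 and null in position 2 each time, so genotype cannot be told apart from the position on the slide.

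Most of the 10 genes were lower in the null heads, and 5 of them passed the test: Elavl3, Elavl4, Dcx, Nefm and Stmn3. None rose in limma, where 12.3% of all genes were called higher, and at an unadjusted p under 0.05 the counts were 7 lower and 0 higher. Among all genes tested 11.2% were called lower and 23.5% were called in either direction. The median difference of the 10 genes was -0.62, beside -0.04 over all genes tested, and 9 of the 10 differences were negative. With array weights the median was -0.34 and 8 were negative. The null arrays lay wholly below the wild type arrays for 7 genes, the 5 that passed together with Stmn2 and Ina; such a gap in that direction was found for 21.8% of all genes. The largest difference was that of the RNA-binding protein gene Elavl3, and the means of the growth cone gene Gap43 lay closest to each other.

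**Figure D1:**
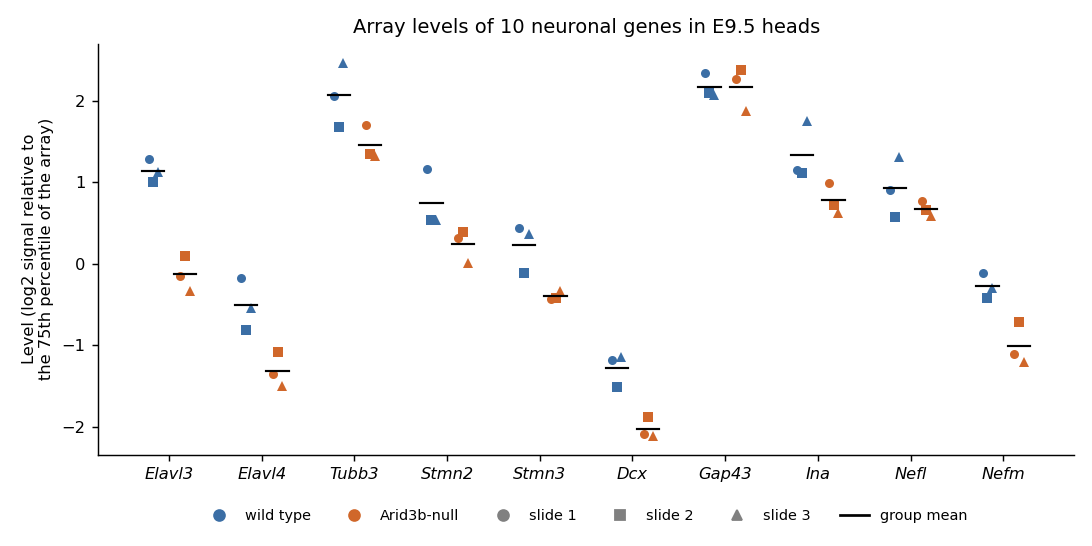
Level of each of the 10 genes on every array (vertical axis, log2 signal relative to the 75th percentile of the array), wild type in blue and Arid3b-null in orange, with marker shapes for the slide and bars for group means (n = 3). The null points lie below all wild type points for 7 genes, while those of Tubb3, Nefl and Gap43 overlap with wild type; heights of different genes are not comparable.

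Elavl3 and Elavl4 encode the neuronal Hu proteins HuC and HuD, which bind AU-rich elements in transcripts of neurons. The Elavl3 probe read 1.28, 1.003 and 1.13 on wild type arrays 1, 2 and 3 and -0.14, 0.10 and -0.34 on the null arrays. The gap between the groups was far wider than the spread within either, at 1.14 ± 0.14 against -0.13 ± 0.22 (mean ± SD, n = 3). Null heads thus held 41.6% of the wild type Elavl3 signal, a difference of -1.27 ± 0.16 with a limma adjusted p of 0.00336 and a 95% interval of -1.65 to -0.88. Elavl3 was the only one of the 10 genes to pass under all 18 alternatives tried, with differences of -1.38 to -1.16.

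Elavl4 fell as well. Its brighter probe read -0.17, -0.81 and -0.55 in wild type and -1.35, -1.08 and -1.49 in null heads. The lowest wild type array stood above the highest null array by a narrow margin. The difference was -0.80 ± 0.20, or 1.74-fold lower, with a limma adjusted p of 0.0303. The second, dimmer Elavl4 probe gave -0.63 ± 0.24, and its groups met: wild type array 3 read -2.13 and null array 2 read -2.10. Tested among all 26288 kept probes, that probe did not pass (limma adjusted p of 0.108) and the brighter one did (0.0400).

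Dcx encodes doublecortin, a microtubule-binding protein of migrating neurons and growing axons. Its brightest probe read -1.18, -1.51 and -1.14 in wild type and -2.09, -1.88 and -2.11 in null heads. All null arrays lay below all wild type arrays, and the spread was small, with SDs of 0.20 and 0.13. The difference was -0.75 ± 0.16, leaving 59.6% of the wild type signal, with a limma adjusted p of 0.0162. A very dim Dcx probe with signals of 7.31 to 14.7, above background on 2 of 3 null arrays, gave -0.73 ± 0.21. The third Dcx probe, matched to another Dcx transcript, gave -0.49 ± 0.31 with overlapping groups. Neither of these passed in the probe fit of limma (adjusted p of 0.0537 and 0.324), and with the mean of the 3 probes Dcx was no longer called (0.0584).

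Stmn2 and Stmn3 encode stathmins, membrane-bound proteins that destabilise microtubules in growth cones. The Stmn3 probe read 0.44, -0.11 and 0.37 in wild type and -0.43, -0.42 and -0.34 in null heads. The null arrays were nearly equal to each other while the wild type arrays were not, with SDs of 0.05 and 0.30. The difference was -0.63 ± 0.18 with a limma adjusted p of 0.0408. Stmn2 read 1.16, 0.54 and 0.53 in wild type and 0.32, 0.39 and 0.01 in null heads. Its wild type values rested above the null ones mainly through array 1, and the difference of -0.50 ± 0.21 did not pass (limma adjusted p of 0.134; 95% interval -1.01 to 0.002). Without wild type array 1 it was -0.29.

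Of the neurofilament genes among the 10, Nefm passed and Nefl and Ina did not. Nefm, the medium subunit, was spotted 10 times on each array, which shows the spread between spots of the same RNA. The spots on 1 array had SDs of 0.04 to 0.08, and their medians were -0.11, -0.44 and -0.30 in wild type and -1.09, -0.73 and -1.21 in null heads. No null spot reached the lowest wild type spot, at -0.55. The spread between arrays of a group, 0.16 in wild type and 0.26 in null, was larger than that between spots of 1 array. Its difference was -0.73 ± 0.17, with 60.2% of the wild type signal left and a limma adjusted p of 0.0252. Taken 1 spot at a time, a choice made after seeing the data, the difference was -0.78 to -0.69.

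**Figure D2:**
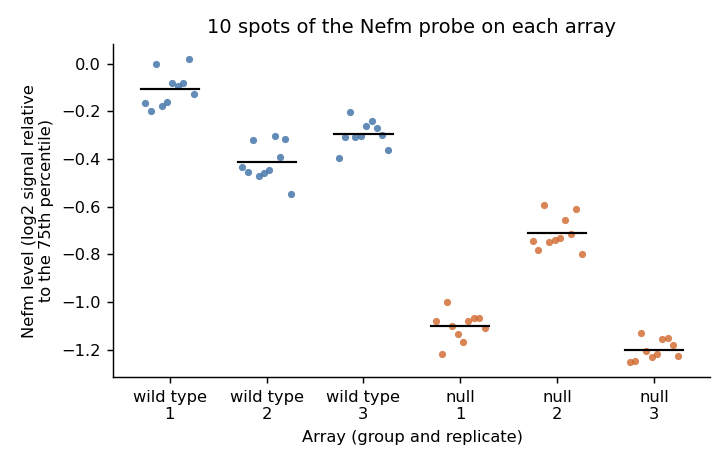
Level of Nefm in each of its 10 spots (points, log2 signal relative to the 75th percentile) on the 3 wild type arrays (blue) and the 3 Arid3b-null arrays (orange), with the mean of each array as a bar. Spots of 1 array cluster within SDs of 0.04 to 0.08, and the highest null array, replicate 2, stays below the lowest wild type array, also replicate 2.

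Nefl, the light subunit on which the other neurofilaments assemble, read 0.90, 0.57 and 1.31 in wild type and 0.76, 0.65 and 0.58 in null heads. Its groups overlapped, and the difference of -0.26 ± 0.20 did not pass (limma adjusted p of 0.393; 95% interval -0.74 to 0.22). It was -0.44 without wild type array 2 and -0.069 without wild type array 3. Ina, which encodes alpha-internexin, an early neurofilament, read 1.14, 1.12 and 1.75 in wild type and 0.99, 0.72 and 0.62 in null heads. These groups were apart, yet the difference of -0.56 ± 0.21 missed the threshold (limma adjusted p of 0.0997), and was -0.35 without wild type array 3. Tubb3, the neuronal beta-tubulin, read 2.06, 1.67 and 2.46 in wild type and 1.70, 1.35 and 1.32 in null heads, with null array 1 above wild type array 2. Its difference was -0.61 ± 0.23 (limma adjusted p of 0.0957). For Nefl, Ina and Tubb3 wild type array 3 was the highest of all 6 arrays, while for Elavl3, Elavl4, Stmn2, Stmn3 and Nefm it was wild type array 1.

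Gap43 encodes a membrane protein of growth cones. It read 2.34, 2.09 and 2.06 in wild type and 2.26, 2.38 and 1.87 in null heads, which overlap completely. The difference was 0.004 ± 0.18, with a 95% interval of -0.41 to 0.42. Of the 5 genes that passed, only Elavl3 had an interval (-1.65 to -0.88) clear of it. Those of Elavl4 (-1.28 to -0.32), Dcx (-1.11 to -0.38), Nefm (-1.14 to -0.32) and Stmn3 (-1.04 to -0.22) overlapped it. Over the alternatives the Gap43 difference ran from -0.10 to 0.15.

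**Figure D3:**
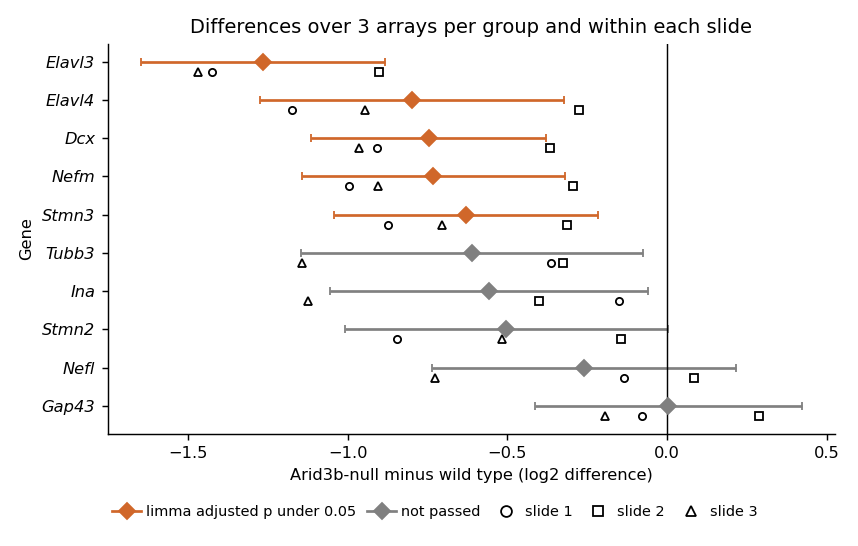
Arid3b-null minus wild type difference of each gene (diamonds, log2, n = 3 arrays per group) with its 95% interval from limma (bars), orange where the adjusted p was under 0.05, and the difference within each slide as open symbols below it. On slide 2 every gene but Ina showed its smallest fall or no fall, and Gap43 sits at 0.

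Within slides, which hold 1 array per group and allow no test, the 10 genes had median differences of -0.86, -0.31 and -0.92 on slides 1, 2 and 3, against -0.06, -0.01 and -0.03 over all genes. All 10 were lower in null on slides 1 and 3, and 8 were on slide 2, where Nefl (0.08) and Gap43 (0.29) were not. Elavl3 differed by -1.42, -0.90 and -1.47 on the 3 slides, Dcx by -0.91, -0.37 and -0.96, and Nefm by -0.995, -0.30 and -0.90. On slide 2 both arrays contributed to the smaller gap: wild type array 2 was the lowest of its group for 8 of the 10 genes, and null array 2 was the highest of its group for 6. Null array 3 was the lowest of its group for 9 genes. With the slide as a block, where 11.8% of all genes were called lower, the same 5 genes passed, with limma adjusted p of 0.00983 for Elavl3, 0.0333 for Dcx, 0.0417 for Nefm, 0.0438 for Stmn3 and 0.0449 for Elavl4.

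Among single probes 4 of the 13 passed in limma, all lower, where 8.58% of all kept probes were called lower and 18% in either direction; with the slide as a block only the Elavl3 probe did (adjusted p of 0.0175). The calls other than Elavl3 also depended on single arrays. Without wild type array 1, null array 1 or null array 3 only Elavl3 passed in limma, with 1 of 10 genes called each time. Without null array 2 the genes that passed were Elavl3, Dcx and Nefm, and without wild type array 3 Stmn3 missed the threshold (adjusted p of 0.0570). The share of all genes called fell too, to 14.3% without wild type array 1 and to 10.2%, 12.5% and 12.5% without null arrays 1, 2 and 3. Without wild type array 3 it rose to 34.9%.

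Each array measures all 10 genes in the same RNA, so the shift of 1 gene relative to another between the groups was also taken within arrays, with 16 contrasts chosen after the values were seen. Elavl3 relative to Nefm was almost constant within a group, with an SD over arrays of 0.02 in wild type and 0.08 in null, and shifted by -0.53 between groups. Elavl3 also shifted down relative to Elavl4 (-0.47), Dcx (-0.52), Stmn3 (-0.63), Stmn2 (-0.76), Nefl (-1.01) and Gap43 (-1.27), with no overlap between the groups in any of these contrasts, and relative to Tubb3 (-0.66) and Ina (-0.71) the groups overlapped. Nefm against Nefl (-0.47), Nefm against Ina (-0.17) and Stmn3 against Stmn2 (-0.13) did not separate the groups. Nefl against Ina (0.30), Nefm against its heavy partner Nefh (-2.04) and Dcx against its relative Dclk1 (-0.90) did. An exact permutation test of 3 arrays against 3 cannot give a two-sided p below 0.10, which 11 of the 16 contrasts reached; adjusted over the 16 this is 0.145, so none passed.

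**Figure D4:**
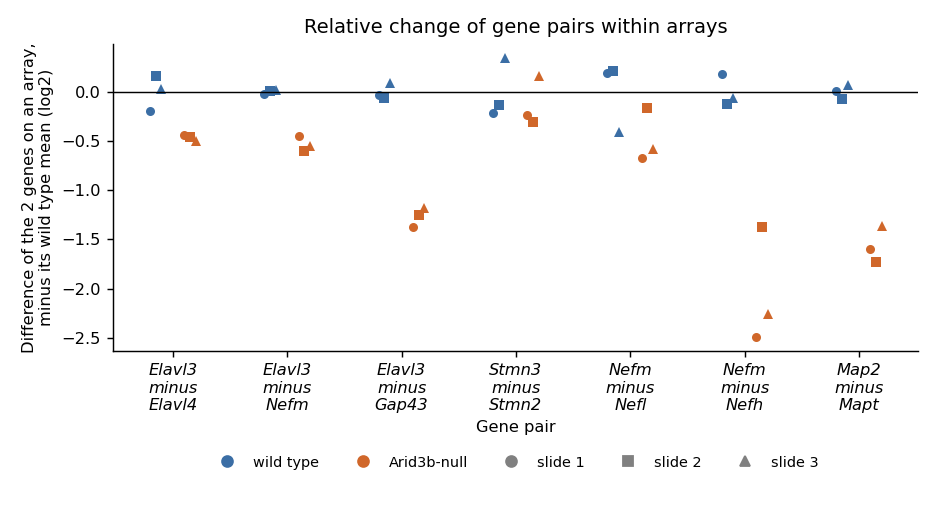
Difference between the levels of 2 genes on the same array, minus its wild type mean (vertical axis, log2), for 7 gene pairs on wild type (blue) and Arid3b-null (orange) arrays; shapes give the slide. Null arrays lie below wild type for Elavl3 against Elavl4, Nefm and Gap43, for Nefm against Nefh and for Map2 against Mapt, and overlap with wild type for Stmn3 against Stmn2 and Nefm against Nefl.

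Start-site sequence was available for 6 of the 10 genes, and is shown for the 4 of them that fell, since the E-box CANNTG is the site read by proneural helix-loop-helix factors. The windows are RefSeq promoters of build GRCm38.p6, running from 250 bases before to 50 bases after an annotated start, 5′ to 3′ on the strand of the gene, with E-boxes in capitals.
Elavl3, chr9:22051974-22052273, minus strand: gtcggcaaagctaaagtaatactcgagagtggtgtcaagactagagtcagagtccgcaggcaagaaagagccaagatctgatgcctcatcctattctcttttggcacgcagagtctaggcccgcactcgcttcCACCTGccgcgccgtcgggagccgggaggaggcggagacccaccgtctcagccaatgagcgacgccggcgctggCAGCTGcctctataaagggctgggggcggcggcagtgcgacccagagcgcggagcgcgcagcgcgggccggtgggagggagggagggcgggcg
Elavl4, chr4:110287478-110287777, minus strand, 1 of its 4 annotated starts: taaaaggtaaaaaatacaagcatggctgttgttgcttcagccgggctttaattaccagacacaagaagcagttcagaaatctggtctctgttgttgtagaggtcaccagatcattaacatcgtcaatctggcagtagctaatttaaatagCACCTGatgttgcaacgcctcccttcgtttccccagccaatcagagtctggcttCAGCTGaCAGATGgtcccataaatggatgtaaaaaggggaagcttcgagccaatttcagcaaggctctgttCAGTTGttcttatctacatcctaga
Stmn3, chr2:181314451-181314750, minus strand: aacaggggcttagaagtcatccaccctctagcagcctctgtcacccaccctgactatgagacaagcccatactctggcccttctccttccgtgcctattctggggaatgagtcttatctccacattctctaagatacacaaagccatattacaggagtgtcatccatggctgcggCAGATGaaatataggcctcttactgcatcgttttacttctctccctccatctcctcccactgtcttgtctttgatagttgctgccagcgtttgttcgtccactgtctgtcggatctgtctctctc
Dcx, chrX:143933170-143933469, minus strand, 1 of its 2 annotated starts: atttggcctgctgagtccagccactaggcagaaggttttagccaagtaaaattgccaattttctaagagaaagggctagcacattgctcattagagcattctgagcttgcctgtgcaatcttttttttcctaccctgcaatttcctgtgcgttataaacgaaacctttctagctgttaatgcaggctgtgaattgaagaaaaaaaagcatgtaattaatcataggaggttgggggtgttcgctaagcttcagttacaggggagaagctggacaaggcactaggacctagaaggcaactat
The Elavl3 window holds 2 E-boxes, which begin 117 and 43 bases before the start, and a TATAAA box 33 bases before it. The Elavl4 window shown holds 4, Stmn3 has 1 and the Dcx window shown has 0. The Elavl4 windows not shown hold 0, 4 and 1, the one with 4 overlapping the window shown, and the Dcx window not shown holds 0. An E-box on either strand occurs in 72.3% of all 32851 promoter windows of the same length and in 6 of the 10 windows of the 6 genes, so its presence does not set these genes apart. By gene, 4 of the 6 had one in at least 1 window. The run ATTAA, AT-rich letters of the kind that some ARID proteins favour, was searched on both strands and occurred in 27.1% of all windows. It was found in windows of Elavl4 and Dcx, 3 times in the Dcx window shown with 2 of the matches overlapping. These matches are descriptions of the letters and not evidence of binding.

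Close relatives of the 10 genes moved in both directions. Of 18 paralogs and related genes measured, 4 fell and 1 rose, with a median of 0.004. The other neuronal Hu gene, Elavl2, fell by 0.72 ± 0.18 (limma adjusted p of 0.0311), and so did Elavl1, the family member found in all cell types, by 0.62 ± 0.16 (0.0329). Thus all 4 Hu genes were called lower in this fit, though Elavl1 was at -0.35 and not called as the mean of its probes (0.0959). Second probes gave -0.07 ± 0.16 for Elavl1 and -0.34 ± 0.20 for Elavl2, neither passing in the probe fit of limma (adjusted p of 0.795 and 0.272). Both Elavl1 and Elavl2 missed the threshold when dim probes were not filtered (0.0699 and 0.0669). Like Elavl4, they also missed it without wild type array 1, null array 1 or null array 3. Of the other beta-tubulins only Tubb2a fell (-0.51 ± 0.14, limma adjusted p of 0.0360; 0.0515 with the slide as a block and 0.0552 after quantile normalization), and Tubb2b was at -0.51 ± 0.15 (0.0515). Tubb5, the common tubulin of dividing cells, was at 0.13 ± 0.13 and Tubb4b at -0.40 ± 0.12, neither passing. Stmn1, a cytosolic stathmin of dividing cells, was at -0.23 ± 0.12 and Stmn4 at 0.16 ± 0.18, and the doublecortin relatives Dclk1 and Dclk2 were at 0.15 ± 0.18 and 0.42 ± 0.21, none of which passed.

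Among intermediate filaments the heavy neurofilament subunit gene Nefh went against Nefm. It read -3.54, -3.54 and -3.48 in wild type and -1.86, -2.58 and -2.18 in null heads, 2.48-fold higher (log2 difference 1.31 ± 0.20, limma adjusted p of 0.00520). Its wild type arrays were almost equal, and every null array stood well above them. With normexp background correction its difference was 0.76. Nes, the filament gene of progenitors, fell by 0.93 ± 0.14 (limma adjusted p of 0.00477). Prph (0.42 ± 0.19), a filament of peripheral neurons, and Vim (-0.09 ± 0.21) did not pass.

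On the brightest probe of each, other genes of neuronal structure and secretion were split evenly: of 35 measured, 7 fell and 7 rose, with a median of -0.01. Dimmer probes of Map1a (-1.80 ± 0.20) and Map1b (-0.79 ± 0.21), not called on their brightest, passed lower in the probe fit of limma (adjusted p of 0.00297 and 0.0405). The largest fall in the gene fit was that of Dpysl4, a collapsin response mediator (-1.40 ± 0.14, limma adjusted p of 0.00156). The rises were led by Eno2, the neuronal enolase, at 4.39 ± 0.13 (limma adjusted p of 4.02e-05), an enzyme also used as a pan-neuronal marker. The cell adhesion gene Nrcam (0.99 ± 0.15) and the axonal kinesin gene Kif1a (1.08 ± 0.17) rose too. The following pairs were chosen after their values were seen. Map2, the microtubule-associated protein of dendrites, fell by 0.71 ± 0.15 (limma adjusted p of 0.0178), while Mapt, the axonal protein tau, rose by 0.86 ± 0.20 (0.0241). Their ratio shifted by -1.56 within arrays, with no overlap between groups (exact permutation p of 0.10, the smallest possible). A dimmer Map2 probe gave -0.53 ± 0.28 and did not pass in the probe fit of limma (adjusted p of 0.232). Dimmer Mapt probes passed higher in that fit (0.0108 and 0.0341). The Map2 call was lost without wild type array 1, null array 1 or null array 3. The Mapt call was lost without wild type array 2, null array 1 or null array 2, and when dim probes were not filtered. Nsg1 fell by 0.65 ± 0.15 and its relative Nsg2 rose by 0.87 ± 0.15 (limma adjusted p of 0.0208 and 0.00806). The Nsg1 call was lost without wild type array 1 or any 1 null array, while Nsg2 passed under all 18 alternatives.

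RNA-binding and splicing genes of neurons were divided as well, with 2 of 16 lower, 3 higher and a median of 0.04. A dimmer probe of Nova1, not called on its brightest, passed lower in the probe fit of limma (-1.32 ± 0.14, adjusted p of 0.00286). Srrm4, which drives splicing of neuronal microexons, fell by 1.41 ± 0.17 (limma adjusted p of 0.00292), and the splicing regulator Celf3 by 1.15 ± 0.20 (0.00901). Cpeb1, a regulator of translation, rose by 2.39 ± 0.15 (0.000465), but only 2 of 3 wild type arrays measured it above background and its difference was 0.71 with normexp. Khdrbs2 rose by 0.98 ± 0.24 (0.0268), and by 0.39 with normexp.

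Factors that start neurogenesis were called in 1 direction. Of 18 measured, 6 fell and none rose in limma (7 lower and 0 higher at an unadjusted p under 0.05), with a median of -0.48. A dimmer probe of Neurod1, not called on its brightest, also passed lower in the probe fit of limma (-0.80 ± 0.16, adjusted p of 0.0170). Nhlh2, a helix-loop-helix factor of young neurons, fell by 1.38 ± 0.21 (limma adjusted p of 0.00575), and Scrt1, a zinc finger repressor of new neurons, by 0.93 ± 0.15 (0.00607). Neurod4 (-1.07 ± 0.19) and St18 (-1.87 ± 0.40) were well above background on 1 of 3 null arrays each, and with normexp neither was called (-0.13 and -0.31).

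Genes of neuron types did not share 1 direction. Of 11 sensory ganglion genes 3 passed, with a median of 0.31 over the list. Among them the neurotrophin receptor gene Ntrk3 rose by 1.44 ± 0.15 and the homeobox gene Phox2a by 0.90 ± 0.16 (limma adjusted p of 0.00197 and 0.00960). A dimmer probe of Ntrk2, not called on its brightest, passed higher in the probe fit of limma (0.76 ± 0.20, adjusted p of 0.0426). Of 7 motor neuron genes 3 fell and none rose in limma (5 lower and 0 higher at an unadjusted p under 0.05). Among those 5 the choline transporter gene Slc5a7 was named after its values were seen; it was above background on 1 of 3 null arrays and did not pass (-1.30 ± 0.47). Lhx3 (-2.20 ± 0.16), Lhx4 (-2.65 ± 0.15, above background on 2 of 3 null arrays) and the progenitor factor Olig2 (-1.48 ± 0.16) were smaller with normexp, at -0.96, -0.69 and -0.71; Lhx3 and Lhx4 are also expressed in the pituitary primordium.

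**Figure D5:**
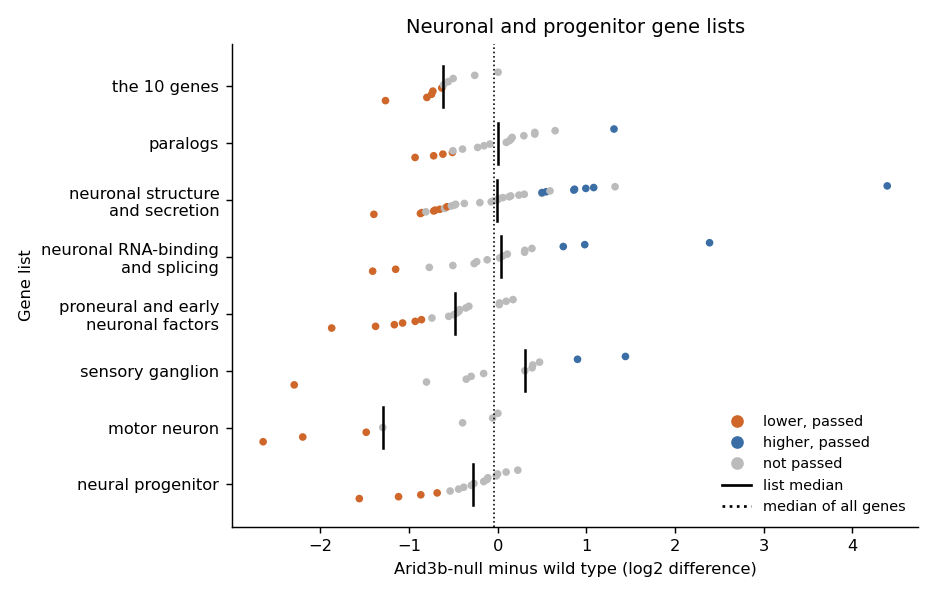
Arid3b-null minus wild type difference of every measured gene (points, log2, horizontal axis) in the 10 genes and in 7 other gene lists, coloured by the limma call, with list medians as bars and the median of all genes as a dotted line. The 10 genes, the early neuronal factors, the motor neuron list and the progenitor list hold falls and no rises that passed, whereas paralogs and the structure and RNA-binding lists hold both.

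Other cell types of the head gave these values. Among 16 markers of neural progenitors, 4 fell and 0 rose in limma (7 lower and 0 higher at an unadjusted p under 0.05), with a median of -0.28: Fabp7 (-1.56 ± 0.21), Sox3 (-0.87 ± 0.16), Sox1 (-0.68 ± 0.13) and Pou3f3 (-1.12 ± 0.30; -0.65 with array weights). The Sox1 call was lost with the mean of its probes (limma adjusted p of 0.0528) and without null array 1 or 2 (0.0512 and 0.0527). The Pou3f3 call was lost when dim probes were not filtered (0.0769) and without wild type array 1 or any 1 null array. Fabp7 and Sox3 passed under all 18 alternatives. The summed level of the progenitor list, log2 of the summed relative signals, was 6.002 to 6.39 in wild type and 5.59 to 5.95 in null heads. That of the 10 genes, 4.10 to 4.49 and 3.68 to 3.97, was also lower without overlap. So were those of neuronal structure and secretion (7.22 to 7.42 and 6.95 to 7.14) and early neuronal factors (3.20 to 3.46 and 2.83 to 2.94). That of the sensory ganglion list was higher (3.72 to 3.91 and 3.998 to 4.11). Those of the paralogs, RNA-binding genes and motor neuron genes overlapped. Bright probes weigh most in such sums. Of 11 cranial mesenchyme genes (median -0.07) Prrx1 alone fell (-0.85 ± 0.17), though its second probe gave 0.68 and the mean of its probes was not called (-0.09, limma adjusted p of 0.763); the call was also lost without null array 1 or 3 (0.0502 and 0.0530). Klf1 alone fell of 8 primitive erythroid genes (median -0.11), a call that also needed null arrays 1 and 3 (0.0804 and 0.0827 without them in turn). In the endothelium list a dimmer probe of Kdr passed higher in the probe fit of limma (0.76 ± 0.16, adjusted p of 0.0217), while its brightest was at -0.22. On the brightest probe of each gene, none passed in limma among 8 of surface ectoderm (median 0.42), 7 of endothelium (0.07), 6 of heart muscle (-0.21) and 5 of crest-derived glia (0.25). In these lists an unadjusted p under 0.05 was reached by 2, 1, 0 and 1 genes. Their summed levels overlapped between wild type and null heads: 5.67 to 5.76 and 5.69 to 5.91 for mesenchyme, 9.31 to 9.74 and 8.93 to 9.97 for erythroid cells, 4.61 to 5.80 and 5.39 to 5.47 for surface ectoderm, 3.30 to 3.95 and 3.30 to 3.53 for endothelium, 0.30 to 1.71 and 0.84 to 1.03 for heart, and 1.54 to 1.83 and 1.63 to 1.96 for glia. Of the 14 head and first arch genes 5 fell, among them Lhx8 (-3.15), Barx1 (-2.34), Dlx1 (-1.50) and Dlx2 (-1.13), and 2 rose. The part of these cell types in the falls of the 10 genes was not tested.

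The genes whose levels followed the mean of the 10 genes most closely over the 6 arrays were Bcl11a (Pearson r = 0.9997), Serpina1c (0.997), 4930412O13Rik (0.992), Nhlh2 (0.990) and Vmn1r25 (0.989). The 6 arrays form the 2 genotype groups, 14888 genes were ranked and 196 of them had an r of at least 0.95, so these values describe a ranking and carry no test.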

How the data were processed

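Total RNA of 6 pools was labelled with Cy3 and hybridised to 1-colour Agilent mouse arrays. Spot intensity values in the deposited files were read, per the file headers, with Agilent Feature Extraction 10.7.3.1, whose processed signal is background-corrected; the authors' deposited value table holds log2 values, whose exact normalization no source used here states (column medians 6.76 to 6.77, lowest correlation with its own array 0.999). Here the processed signal was put on the log2 scale and the 75th percentile of each array subtracted. Control and outlier spots were left out, spots of a probe were averaged, and a probe was kept where every one of the 3 arrays in at least 1 group flagged it as well above background and 5 or more arrays gave a value. RefSeq accessions named 26424 of 39429 probes with 1 gene symbol, and the brightest kept probe stood for a gene. Groups were compared with limma 3.58.1 in R 4.3.3 at a Benjamini-Hochberg adjusted p under 0.05, and the pipeline was tested on simulated data. From each other gene list, the genes named are up to 4 that passed with the smallest p, plus paralogs and the 5 genes most like the mean profile. Map2, Mapt, Nsg1, Nsg2 and Slc5a7 fall outside this rule and were chosen after their values were seen. So were Map1a, Map1b, Nova1, Neurod1, Ntrk2 and Kdr, named because a dimmer probe passed where the brightest did not. The result for 1 gene of the sensory ganglion list is not reported here. The 10 genes and all lists were chosen with earlier results of these data known. Alternatives covered normalization, background, filter, probe choice, variance model, array weights, threshold, slide block and leaving out each array. The number of arrays limits the precision.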

Additional observations from a re-analysis of the deposited data

How the results depend on the processing

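Of the 10 genes 5 were called under quantile normalization, median centring, normexp (on median signals, with quantile normalization), the deposited value table, the intensity trend, array weights, the slide block and the filter on all 6 arrays, and 4 with the mean of all probes. Among all genes 63.3% were called with array weights, a larger share than of the 10 genes. Under the other settings just named, 22.6% to 25.4% of all genes were called. Without the filter on dim probes 2 of the 10 genes were called, at an adjusted p under 0.01 1, and with 1 array left out 1 to 5. The shares of all genes there were 11.3%, 8.53% and 10.2% to 34.9%. Of the 13 probes 4 were called, 1 without the filter, 1 at an adjusted p under 0.01, and 1 to 4 with 1 array left out. In the paired analysis with the replicate number (the slide) as a block, 1 probe, 5 of the 10 genes and 3689 of all genes were called. Deviations of arrays of the same number from their group means correlated with r of -0.20, 0.15 and 0.42 over 14898 genes, so not every pair exceeded 0.1. For arrays of unlike number r ran from -0.52 to 0.49. The highest r of any pair was that of wild type array 1 with null array 2. Over all genes 3506 were called, 9431 with array weights (whose estimate did not reach its convergence tolerance), 2270 without the filter, 1272 at an adjusted p under 0.01, and 1516 to 5199 with 1 array left out. In the 5 neuronal lists other than the 10 genes and their paralogs 31 were called, 59 with array weights, 19 at an adjusted p under 0.01, and 20 to 38 with 1 array left out. Array weights moved Tubb3 to -0.11, Ina to -0.21, Stmn2 to -0.30, Stmn3 to -0.37 and Nefl to 0.11; Stmn3 kept its call. The cause of these shifts was not tested. With 1 array left out, the group of 2 is assumed to vary like the other. All but 1 of the 13 probes were well above background on every array.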
